A study of Mus musculus with 12 samples.

Results

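The genes described here encode membrane mucins (Muc1, Muc4 and Muc13) and enzymes that build the sugar chains of mucins (Galnt3, Galnt12, C1galt1, C1galt1c1, B3gnt7, Fut2 and B4galnt2). They were found by their symbol in the deposited gene tables, and all 10 were present among the 47632 genes of each table. RNA was measured in epithelial cells that had been isolated with EDTA from the colon of C57/BL6 mice. In Tfeb ΔIEC animals, both Tfeb alleles are floxed and Cre recombinase under the villin promoter deletes them in the intestinal epithelium. Tfeb flox/flox animals carry the same floxed alleles without Cre. Cells were taken on Day 0, Day 4 and Day 11 of an experiment with dextran sodium sulfate (DSS), which injures the colonic epithelium when given in drinking water. The labels give 2.5% DSS for all samples and the methods a slightly lower concentration. Per the study, Day 0 animals were untreated, Day 4 lay at the end of the DSS administration and Day 11 after the recovery. Each of the 6 groups held 2 animals, 12 animals in all. The labels give ages of 10 and 12 weeks in both genotypes on Day 0, 12 weeks on Day 4 and 10 weeks on Day 11. The genotypes are hereafter flox/flox and ΔIEC.

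Membrane mucins are large glycoproteins that are anchored in the apical membrane of epithelial cells and form the glycocalyx beneath the secreted mucus. Their O-glycans begin when a GalNAc transferase attaches N-acetylgalactosamine (GalNAc) to serine or threonine. Core enzymes then add the next sugar, other enzymes extend the chain, and fucose, GalNAc, sialic acid or sulfate is added at its end.

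The deposited unit was FPKM, the sequenced fragments of a gene per kilobase of its transcript, relative to library size. The difference between genotypes still moved with transcript length, as given below. Levels of genes of unlike length are therefore compared with caution. Each value is the authors' pooled value for both animals of a group. No value therefore has an error of its own, and no test between genotypes could be made from these values. The authors' own test, which the tables also hold, was not used. Differences are given as log2 fold changes of ΔIEC over flox/flox computed on FPKM plus 1, so that the change of genes with low values is understated. A gene was counted as measured with at least 1 FPKM in either genotype, and as higher or lower where this ratio was at least 4-fold. The genotypes of a day were scaled together by the authors, and the days were normalized separately. The targeted gene Tfeb had 0.901 FPKM in flox/flox and 0.185 in ΔIEC animals on Day 0. Its ΔIEC values of Days 4 and 11 were both listed at 0, against 1.08 and 1.18 in flox/flox animals.

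The groups of Day 4 and Day 11 stood close together although the labels give separate animals. Among all genes above 0 on both days, 49.4% in flox/flox and 48.8% in ΔIEC animals had values within 5% of each other. Between Day 0 and Day 4 these shares were 3.78% and 5.73%. Exactly identical values on Days 4 and 11 were listed for 1679 genes in the flox/flox and 1310 genes in the ΔIEC groups, against 0 in each for Days 0 and 4, and none of the 10 genes was among them where it was above 0. The Day 11 values are therefore printed beside those of Day 4 and are not used as independent support. On Day 4 the FPKM values of all genes summed to 1464720 in flox/flox and to 820344 in ΔIEC animals, a log2 ratio of 0.84. The log2 ratio of the sums was 0.83 on Day 11 and 0.00 on Day 0. The genes above 0 in a group numbered 11768 to 13187, and the number of reads behind them is unknown.

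Fut2, B4galnt2 and C1galt1c1 were at least 4-fold higher in ΔIEC than in flox/flox animals on Day 4, and again on Day 11. None of the 10 genes reached 4-fold in either direction on Day 0, and none was 4-fold lower on any day. Muc13 carried the highest level of the 10 genes in all 6 groups and was 2.53-fold higher in ΔIEC animals on Day 4. Muc4 and Galnt12 had slightly lower values in ΔIEC animals on Day 4 (log2 fold changes of -0.02 and -0.29), and both signs turned when each group was divided by its own sum. Muc1 was listed at 0 in 5 of the 6 groups.

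TFEB binds a palindromic DNA motif, an E-box with the core CACGTG. RefSeq promoter windows of the GRCm38.p6 build, each with 250 bases before and 50 bases after the annotated start, were held for 7 of the 10 genes. C1galt1c1, Galnt12 and Fut2 had no window in the table. The core was searched on both strands, which read the same. It was found in 1 of the 7 genes, B3gnt7, and in 8.09% of all genes with a window (7.15% of all windows). The longer motif TCACGTGA contains the core, was found in none of the 7 genes, and occurred in 1.12% of all genes with a window. The B3gnt7 window is shown as the one with a match (chr1:86302971-86303270, + strand). The B4galnt2 window is shown for a gene that was at least 4-fold higher on Day 4 and has no match (chr11:95914822-95915121, - strand). Capitals mark the core E-box, which begins 34 bases before the RefSeq start used for the window. That start lies downstream of the start of B3gnt7 in GENCODE, so the whole window lies within the gene bounds given for B3gnt7 with its values. A match is no evidence of binding, and its absence says nothing beyond these windows.
B3gnt7: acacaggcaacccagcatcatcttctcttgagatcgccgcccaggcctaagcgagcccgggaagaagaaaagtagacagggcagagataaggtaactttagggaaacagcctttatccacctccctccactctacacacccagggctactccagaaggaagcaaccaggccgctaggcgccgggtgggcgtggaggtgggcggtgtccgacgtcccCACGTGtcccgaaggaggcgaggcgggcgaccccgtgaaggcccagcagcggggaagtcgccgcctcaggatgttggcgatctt
B4galnt2: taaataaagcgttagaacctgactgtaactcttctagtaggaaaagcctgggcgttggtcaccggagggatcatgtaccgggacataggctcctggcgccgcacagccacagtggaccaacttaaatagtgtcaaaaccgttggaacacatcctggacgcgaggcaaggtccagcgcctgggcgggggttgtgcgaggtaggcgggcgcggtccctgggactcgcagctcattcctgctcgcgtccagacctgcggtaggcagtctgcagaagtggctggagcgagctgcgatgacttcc

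**Figure D1:**
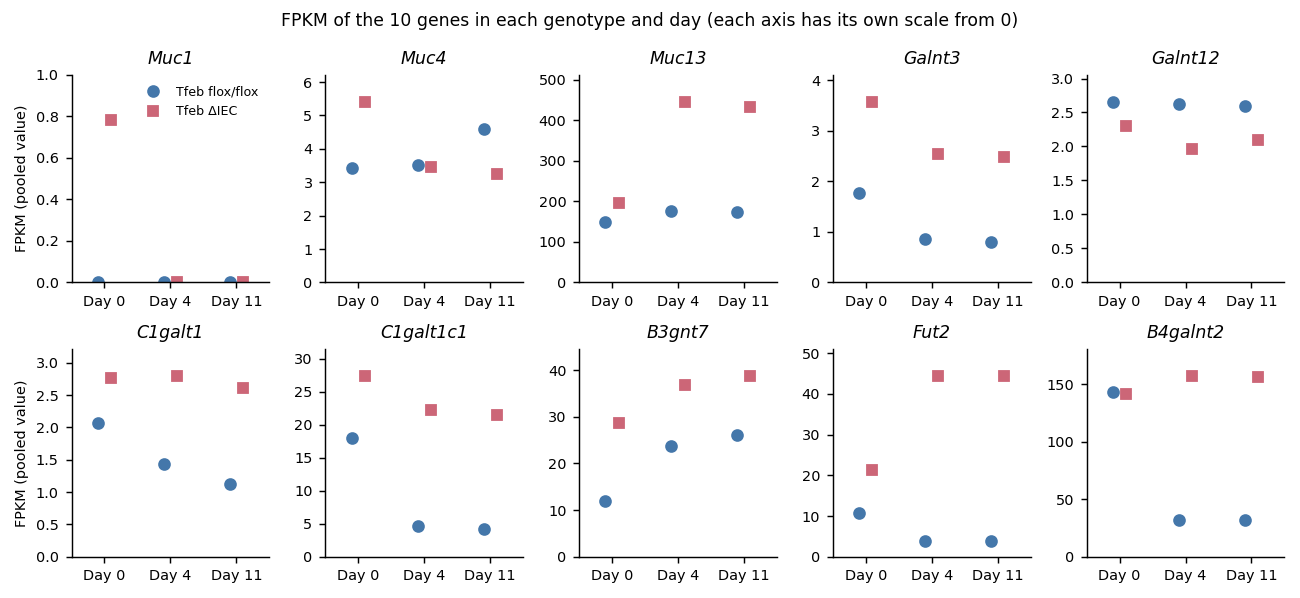
FPKM of each gene (vertical axes, each from 0 on its own scale) on Days 0, 4 and 11 in flox/flox (blue circles) and ΔIEC animals (red squares), each point the authors' pooled value of 2 animals. On Day 4, C1galt1c1, Fut2 and B4galnt2 lie at 4.67, 3.78 and 31.6 FPKM in flox/flox animals and at 22.3, 44.4 and 157 FPKM in ΔIEC animals.

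Among the membrane mucins of the 10 genes, Muc13 (ENSMUSG00000022824.12, chr16:33794037-33819934, + strand) had the highest level. Its level was 149 FPKM in flox/flox and 196 in ΔIEC animals on Day 0. On Day 4 it was 177 and 446 FPKM, and on Day 11 it was 173 and 433 FPKM. The 3 flox/flox values lay close together, and the ΔIEC values of Days 4 and 11 were the highest of the 6. The log2 fold change of Day 0 was 0.39, that of Day 4 was 1.33 and that of Day 11 was 1.32. It stayed under 4-fold on the deposited scale and passed it when each group was divided by its sum (2.16 on Day 4). Muc13 made up between 96.9% and 99.3% of the summed FPKM of Muc1, Muc4 and Muc13. With the more abundant Muc3 and the related Muc3a added to the sum, its share on Day 4 was 27.4% in flox/flox and 42.5% in ΔIEC animals. Muc13 lay at or above the 95.1 percentile of all genes above 0 in each group. The interval of Muc13 in the deposited tables starts at 33684465, upstream of the annotated gene.

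Muc4 (ENSMUSG00000079620.13, chr16:32735886-32782391, + strand), a very large membrane mucin, was low. Its level was 3.44 FPKM in flox/flox and 5.41 in ΔIEC animals on Day 0, 3.53 and 3.47 on Day 4, and 4.58 and 3.26 on Day 11. ΔIEC animals had the higher value on Day 0 (log2 fold change 0.53), and the genotypes differed by 1.02-fold on Day 4. The lower value of ΔIEC animals on Day 11 (-0.39) rested on a flox/flox value that was 29.8% above that of Day 4, the widest gap between these days among the 10 genes, and became 0.27 after division by the sums.

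Muc1 (ENSMUSG00000042784.9, chr3:89229057-89233381, + strand), whose cytoplasmic tail takes part in signalling, had 0.779 FPKM in ΔIEC animals on Day 0 and was listed at 0 in the 5 other groups. It was below 1 FPKM throughout and did not count as measured, which left 9 of the 10 genes on each day.

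Initiation is carried out by a family of GalNAc transferases. Galnt3 (ENSMUSG00000026994.9, chr2:66082766-66124994, - strand), known for its action on the phosphate hormone FGF23, had 1.77 FPKM in flox/flox and 3.57 in ΔIEC animals on Day 0. The values were 0.868 and 2.54 FPKM on Day 4, and 0.802 and 2.48 on Day 11. The ΔIEC value was the higher one on each day, by 2.02-fold, 2.93-fold and 3.09-fold in FPKM. The log2 fold changes with 1 FPKM added were smaller, at 0.72, 0.92 and 0.95, since the levels were low.

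Galnt12 (ENSMUSG00000039774.12, chr4:47091909-47123070, + strand), a transferase expressed in the colon, had 2.66 FPKM in flox/flox and 2.30 in ΔIEC animals on Day 0. It had 2.62 and 1.96 FPKM on Day 4, and 2.59 and 2.09 on Day 11. Its 6 values spanned the narrowest range of the measured genes, and the log2 fold changes were -0.15, -0.29 and -0.22. Division by the sums made those of Day 4 and Day 11 positive (0.28 and 0.36).

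Core 1 is made by the galactosyltransferase C1galt1, which needs the chaperone C1galt1c1 (also called Cosmc) to fold. C1galt1 (ENSMUSG00000042460.5, chr6:7844842-7875687, + strand) had 2.07 FPKM in flox/flox and 2.76 in ΔIEC animals on Day 0. It had 1.43 and 2.80 FPKM on Day 4, and 1.12 and 2.61 on Day 11. ΔIEC values hardly moved between days, and the flox/flox values of Days 4 and 11 lay below that of Day 0. The log2 fold changes were 0.64 on Day 4, 0.77 on Day 11 and 0.29 on Day 0, and the last turned to -0.09 once the median of genes of like length was subtracted.

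C1galt1c1 (ENSMUSG00000048970.9, chrX:38630785-38635087, - strand) had higher FPKM values than the enzyme it serves, whose transcript is longer (6092 nt against 1449 nt). Its level was 18.0 FPKM in flox/flox and 27.4 in ΔIEC animals on Day 0, 4.67 and 22.3 on Day 4, and 4.17 and 21.6 on Day 11. The lowest values were those of flox/flox animals on Days 4 and 11. Within flox/flox animals, Day 4 was 3.85-fold below Day 0, and within ΔIEC animals it was 1.23-fold below, in tables that were normalized separately. The genotypes differed by 4.78-fold in FPKM on Day 4 (log2 fold change 2.04) and by 5.17-fold on Day 11 (2.13), against 0.58 on Day 0. The Day 4 value lay just past 4-fold and fell short of it with 5 FPKM added (1.50) or after centring on the median of all genes (1.98).

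B3gnt7 (ENSMUSG00000079445.3, chr1:86302832-86307305, + strand) adds N-acetylglucosamine to growing chains. Its level was 12.0 FPKM in flox/flox and 28.8 in ΔIEC animals on Day 0, 23.7 and 36.8 on Day 4, and 26.1 and 38.8 on Day 11. On the deposited scale its gap between genotypes was widest on Day 0 (2.40-fold in FPKM, log2 fold change 1.20). The log2 fold changes of 0.62 on Day 4 and 0.55 on Day 11 turned to -0.02 and -0.15 once the median of genes of like length was subtracted. Division by the sums instead raised them to 1.42 and 1.36, above the 1.20 of Day 0 on that scale. Within flox/flox animals the level on Day 4 was 1.98-fold that of Day 0.

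Terminal sugars are added by Fut2 and B4galnt2. Fut2 (ENSMUSG00000055978.4, chr7:45648591-45666394, - strand) is the secretor fucosyltransferase, which makes the H antigen that gut bacteria can use as a source of fucose. Its level was 10.9 FPKM in flox/flox and 21.3 in ΔIEC animals on Day 0. On Day 4 it was 3.78 and 44.4 FPKM, and both values were the same to 3 digits on Day 11. In these separately normalized tables, the genotypes lay on opposite sides of their Day 0 levels. The Day 4 value was 2.88-fold below that of Day 0 in flox/flox animals and 2.08-fold above it in ΔIEC animals. The difference between genotypes on Day 4 was 11.7-fold in FPKM (log2 fold change 3.25), the largest among the 10 genes on that day, and lay at the 98.6 percentile of all measured genes. On Day 0 the log2 fold change was 0.91.

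B4galnt2 (ENSMUSG00000013418.8, chr11:95865943-95914891, - strand) transfers GalNAc to chain ends and makes the Sda antigen. It stood second to Muc13 in all groups. Its level was 144 FPKM in flox/flox and 142 in ΔIEC animals on Day 0, 31.6 and 157 on Day 4, and 32.2 and 156 on Day 11. The genotypes were alike in value on Day 0 (log2 fold change -0.02), and the low values were those of flox/flox animals on Days 4 and 11. Within flox/flox animals Day 4 was 4.54-fold below Day 0, while ΔIEC animals had 1.11-fold the Day 0 level. The gap on Day 4 was 4.98-fold in FPKM (log2 fold change 2.28), and that of Day 11 was 4.86-fold (2.25), which came to 1.97 once the median of genes of like length was subtracted.

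**Figure D2:**
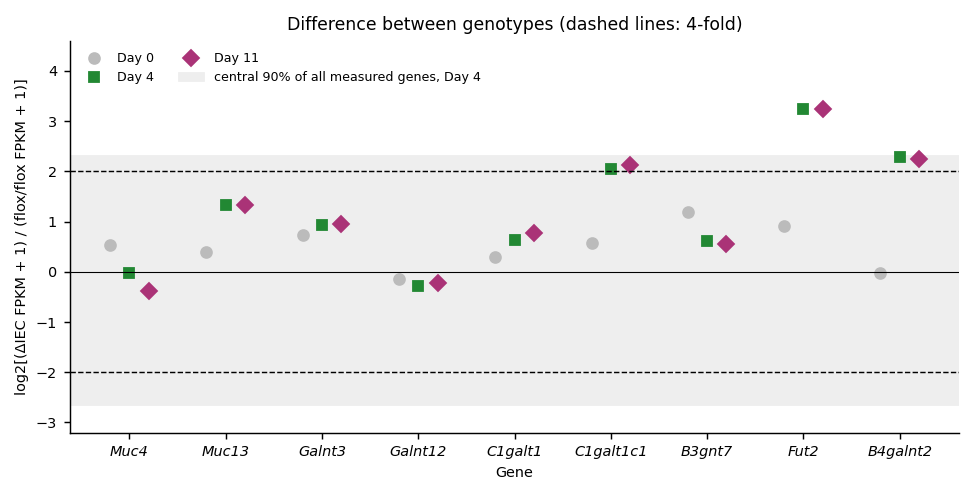
Log2 fold change of ΔIEC over flox/flox with 1 FPKM added (vertical axis) for the 9 measured genes on Day 0 (grey circles), Day 4 (green squares) and Day 11 (purple diamonds), with the central 90% of all measured genes on Day 4 shaded and 4-fold dashed. Fut2 (3.25 on Day 4) lies above the shaded range, while B4galnt2 (2.28) and C1galt1c1 (2.04) lie between the 4-fold line and its upper edge.

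Over the 9 measured genes, 3 were at least 4-fold higher on Day 4, where 7.36% of all 9371 measured genes were at least 4-fold higher and 10.3% at least 4-fold lower. On Day 11 the count was also 3, against 7.46% higher and 10.2% lower of all genes. On Day 0 it was 0, against 2.09% and 3.35%. For the 9 genes together, the median log2 ratio of Day 0 was 0.53, that of Day 4 was 0.92 and that of Day 11 was 0.95, beside 0.06, 0.06 and 0.08 over all measured genes. Once the median of genes of like length was subtracted, the medians of the 9 genes were 0.21, 0.38 and 0.44. On each day 7 of the 9 values were above 0 (with the exceptions under other scalings named above), as were between 51.3% and 52.7% of the values of all genes. Of all genes past 4-fold on Day 4, 41.7% were higher in ΔIEC animals, a share that became 74.1% after division by the sums, which raised the median of all genes to 0.66, and 60.2% after the median of like-length genes was subtracted. On Day 11 the share went from 42.4% to 74.2% and 59.9%, and on Day 0 the latter step moved it from 38.4% to 63.5%.

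Transcript length moved with the difference between genotypes. Over all genes on Day 4, the median log2 fold change was -2.12 for transcripts of 204 to 408 nt, reached 0.73 for those of 2843 to 3128 nt and was 0.14 from 5648 nt upwards. The measured genes had transcripts of 1449 nt (C1galt1c1) to 11277 nt (Muc4). Among protein-coding genes of that length range, a background chosen after the values were seen, 8.8% were at least 4-fold higher and 2.34% at least 4-fold lower on Day 4. After subtraction of the median of the genes nearest in length, Fut2 stood at 2.62, C1galt1c1 at 2.05, B4galnt2 at 2.04 and Muc13 at 0.70. Muc13 and Fut2 have nearly the same transcript length, and genes of that length had a median of 0.63. The part of transcript length in these differences was not tested.

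**Figure D3:**
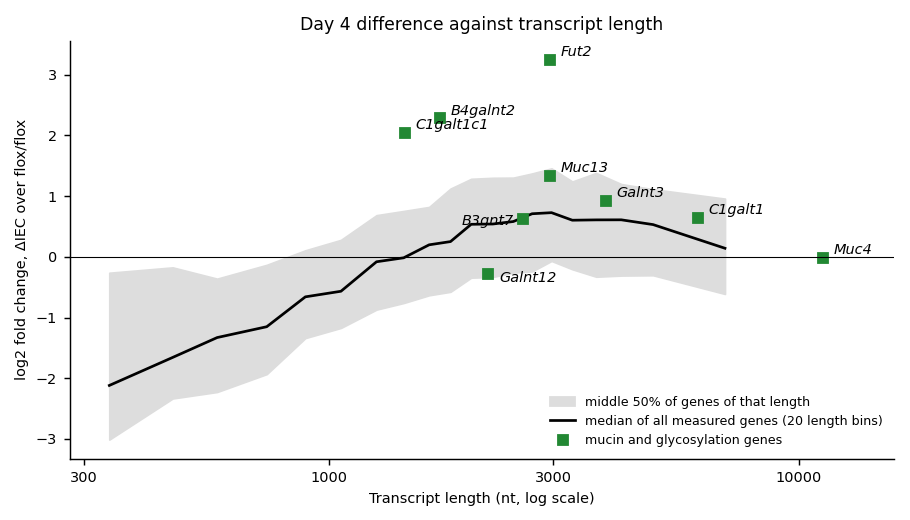
Log2 fold change on Day 4 (vertical axis) against transcript length in nt (horizontal log axis), with the median of all measured genes in 20 length bins (black line), the middle 50% of each bin (grey) and the 9 measured mucin and glycosylation genes (green squares). C1galt1c1, B4galnt2 and Fut2 lie above the grey band, by 2.05, 2.04 and 2.62 over the median of genes of like length, and B3gnt7 lies on the line.

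The other genes of mucin structure and glycosylation were given by a list of 105 genes, of which 102 were in the tables and 55 were measured on Day 4. Of these, 9 were at least 4-fold higher in ΔIEC animals and none lower on Day 4 (background 7.36% and 10.3%). Among protein-coding genes within the length range of the 10 genes, the shares were 8.8% and 2.34%, so that few lower genes were to be found at such lengths. On Day 11 the counts were 10 higher and none lower of 54, and on Day 0 they were 3 and none of 55. The median log2 fold changes of the listed genes were 0.30 on Day 0, 0.73 on Day 4 and 0.71 on Day 11. Over all genes of 2843 to 3128 nt the Day 4 median was also 0.73. The part of transcript length in the values of the list was not tested. The listed genes that reached 4-fold on Day 4 belonged to GalNAc transferases, core and chain enzymes, and sugar nucleotide supply. The other groups held at most 8 measured genes each, too few to read a count of 0 against the background of 7.36%.

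Among the GalNAc transferases, Galnt6 had 1.12 FPKM in flox/flox and 9.93 in ΔIEC animals on Day 4, after 4.64 and 10.2 on Day 0. Galnt4 had 1.02 and 9.93 FPKM on Day 4 and was at least 4-fold higher on Day 0 too, with 1.92 and 11.4 FPKM. It lies within Poc1b on the same strand, so their reads may be divided between them, and Poc1b had 1.21 and 1.25 FPKM on Day 4. These 2 of the 7 measured transferases reached 4-fold on Day 4.

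Gcnt3, which makes core 2 and core 4 branches, had 6.31 FPKM in flox/flox and 37.1 in ΔIEC animals on Day 4, after 18.8 and 32.4 on Day 0. B3galt5, which adds galactose to chain ends, had 6.37 and 30.0 FPKM on Day 4 and 1.89 and 12.4 FPKM on Day 0, past 4-fold on both days. Gcnt3 followed the form of C1galt1c1, with its lowest values in flox/flox animals on Days 4 and 11 (5.97 FPKM on Day 11), whereas B3galt5 had higher values on Day 4 than on Day 0 in both genotypes.

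Of sugar nucleotide supply and transport, the group with the most measured genes, 5 of 19 were at least 4-fold higher on Day 4 (7.36% of all genes) and 5 of 19 on Day 11 (7.46% of all genes). Papss1 and Papss2 make the sulfate donor PAPS. Papss1 had 1.73 FPKM in flox/flox and 35.0 in ΔIEC animals on Day 4, and Papss2 had 34.0 and 229 FPKM. On Day 0 these genes had 31.0 and 61.9 FPKM and 127 and 196 FPKM, neither past 4-fold. Gne, which starts sialic acid synthesis, had 38.2 and 218 FPKM on Day 4, after 121 and 219 on Day 0. Uap1, which makes UDP-GlcNAc, had 2.88 and 49.5 FPKM, and Slc35c1, the GDP-fucose transporter, had 10.6 and 47.2 FPKM. Both were named after their values were seen. Gfpt1, the first enzyme of the hexosamine pathway, was past 4-fold on Day 0 only, with 12.2 and 56.7 FPKM, and had 13.2 and 40.3 FPKM on Day 4.

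Among the other membrane mucins, Muc3 had 461 FPKM in flox/flox and 598 in ΔIEC animals on Day 4, above Muc13 in both, with a log2 fold change of 0.37. Muc2, the gel-forming mucin of goblet cells and the one secreted mucin measured, had 1034 and 2744 FPKM on Day 0 (log2 fold change 1.41), 645 and 1894 FPKM on Day 4 (log2 fold change 1.55) and 244 and 1203 on Day 11 (2.29). From Day 4 to Day 11 its flox/flox value moved more than that of any of the 10 genes.

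**Figure D4:**
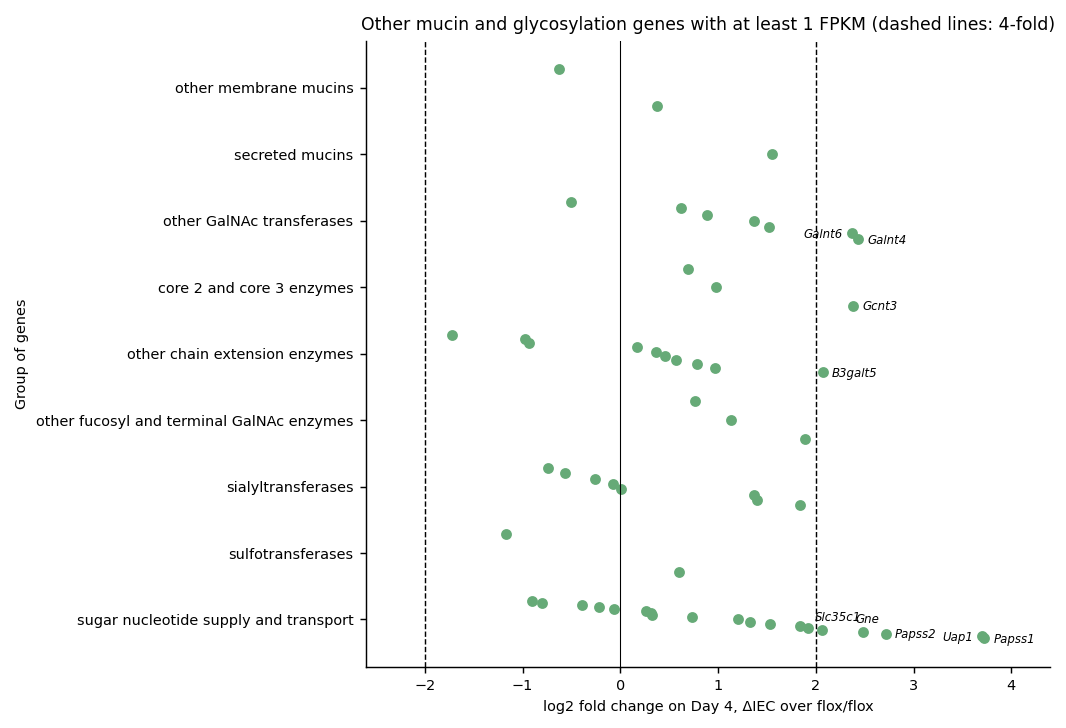
Log2 fold change on Day 4 of ΔIEC over flox/flox (horizontal axis, 4-fold dashed) for the 55 measured genes of the list, by group (vertical axis), each point 1 gene. The 9 genes at or past 4-fold are named, all on the side of higher values in ΔIEC animals, and 5 of them are in sugar nucleotide supply and transport.

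For the genes whose 6 values with 1 FPKM added spanned at least 4-fold, the nearest profiles were sought among 5574 genes by the root mean square difference of log2 values over the 6 groups, after each profile was centred on its mean. The nearest to C1galt1c1 were Gm4887 (0.0374) and Tvp23b (0.0401). The nearest to B4galnt2 were Oma1 (0.0690) and Ywhae (0.0690), and the nearest to Fut2 were Wdr1 (0.127) and Lipa (0.133). Ywhae, for example, had 18.4 FPKM in flox/flox and 92.9 in ΔIEC animals on Day 4, after 78.6 and 87.8 on Day 0. The values of Days 4 and 11 are close in each genotype, so that the 6 values hold little more than 4 separate ones.

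The cells had the markers of colonic epithelium. Epithelial markers summed to 9116 FPKM in flox/flox and 9722 in ΔIEC animals on Day 4, led by Krt19, with 2 of 8 at least 4-fold higher (Cdh1 and Vil1). Stromal markers summed to 0.71 and 0.728 FPKM and immune markers to 3.63 and 3.998 FPKM, led by Pecam1 and, among immune markers, Lyz2. Col1a1, Col3a1 and Cd68 were listed at 0 in both genotypes on that day. In bulk RNA, fewer cells of a type and less RNA per cell cannot be told apart.

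Goblet cells make much of the mucin, and their markers differed between genotypes on the same days. They summed to 153694 FPKM in flox/flox and to 23294.5 FPKM in ΔIEC animals on Day 4, with 5 of 11 at least 4-fold lower (Tff3, Zg16, Spink4, Retnlb and Fcgbp) and none higher. The sum was carried by Spink4, Zg16 and Tff3 in flox/flox animals, while in ΔIEC animals Agr2 (3436 FPKM) lay above Tff3 (2166 FPKM). The log2 fold changes of Clca1 (1.59), Muc2 (1.55), Ern2 (1.04), Atoh1 (0.91) and Spdef (0.24) were above 0, so that 6 markers lay below 0 and 5 above it. Markers below 0 had transcripts of 397 nt (Spink4) to 784 nt (Agr2), apart from Fcgbp with 7927 nt. Those above 0 had 1708 nt (Spdef) to 3655 nt (Clca1), apart from Muc2. The 711 nt listed for Muc2 is a median over its annotated transcripts and may not be the length of its full mRNA. The part of transcript length in the marker differences was not tested. On Day 11 Muc2 and Clca1 were at least 4-fold higher and 5 markers at least 4-fold lower. On Day 0 the sums were 41485.5 and 25088.6 FPKM, with 1 marker at least 4-fold lower (3.35% of all genes), Fcgbp. It had 484 FPKM in flox/flox and was listed at 0 in ΔIEC animals, which had 145 FPKM on Day 4. That 0 may be a failed estimate, so this call is uncertain. Colonocyte markers summed to 59118.7 and 39394.2 FPKM on Day 4, led by Guca2a and Car1, with 3 of 9 at least 4-fold higher (Krt20, Slc26a3 and Cyp2c55) and 1 lower (Saa1). Their median log2 fold change was 1.29, with 6 of 9 above 0, and the lower sum in ΔIEC animals came with the lower value of Guca2a (33249 and 9202 FPKM). The part of these cell types in the values of the 10 genes was not tested.

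**Figure D5:**
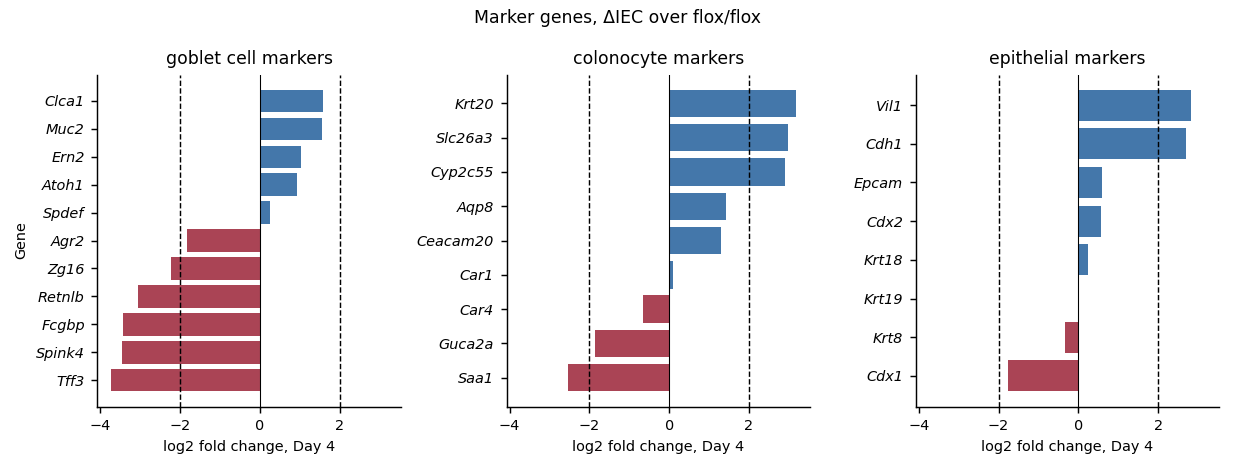
Log2 fold change on Day 4 of ΔIEC over flox/flox (horizontal axes, 4-fold dashed) for the measured goblet cell, colonocyte and epithelial markers (bars from 0, 1 per gene, red below 0 and blue above). Of the 11 goblet cell markers 5 pass 4-fold on the lower side, and of the 9 colonocyte markers 3 pass it on the higher side.

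Sums of the other marker lists on Day 4, in flox/flox and ΔIEC animals, were 2641 and 1304 FPKM for deep crypt secretory cells (mostly Reg4), 852 and 801 for small-intestinal enterocytes (mostly Fabp2, with Apoa4 and Lct at 0) and 1918 and 12.1 for Paneth cells (with Mmp7 at 0). The Paneth cell sum was mostly Defa24 in flox/flox animals. In ΔIEC animals Defa17 (3.61 FPKM) lay above Defa24 (3.18 FPKM). Enteroendocrine cell markers summed to 256 and 86.3 FPKM, mostly Pyy in flox/flox animals and led by Gcg (33.4 FPKM) in ΔIEC animals. Tuft cell markers summed to 1.61 and 0.42 FPKM, mostly Dclk1 in flox/flox animals and led by Trpm5 (0.268 FPKM) in ΔIEC animals. Stem cell markers, led by Smoc2, summed to 2.38 and 1.48 FPKM on Day 4 and to 13.7 and 17.6 on Day 0. Proliferation markers, led by Cdk1, summed to 10.8 and 9.29 FPKM on Day 4 and to 28.6 and 34.4 on Day 0, so that both lists were lower on Day 4 than on Day 0 in both genotypes, in tables normalized separately.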

How the data were processed

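The authors isolated colonic epithelial cells, prepared full-length cDNA with a variation of the SmartSeq2 protocol, sequenced paired-end reads on a MiSeq machine, and mapped them to mm10 with TopHat2 (2.0.14) and Bowtie. Versions come from the submitters' processing notes, and the annotation release is not given in the sources used here. The deposited FPKM values come from Cuffdiff (2.1.1), 1 pooled value per gene, genotype and day. The tables also hold the authors' log2 fold change, test statistic, p-value and q-value per gene, which were not used. The libraries do not mark strand, so a gene and an antisense partner cannot be told apart. The genes that overlap the GENCODE bounds of the 10 genes were at 0 on Day 4. The wider deposited intervals of Muc13 and Muc4 were not searched for other genes.

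Groups follow the sample labels, WT being Tfeb flox/flox and KO Tfeb ΔIEC. Ratios used a pseudocount of 1 FPKM, a minimum of 1 FPKM in the higher genotype and a 4-fold threshold, with the alternatives given in the closing section. The 10 genes and all lists were chosen with earlier results of these data known. Apart from the 10 genes, the text names listed genes past 4-fold on any day (in a group with over 4 such genes, the 4 with the highest FPKM), genes that carry a marker sum, and the 2 nearest profiles of each of the 10 genes that spanned at least 4-fold. Other genes are named where a count or a list required it. The result of 1 listed marker gene is not reported here. Transcript lengths are medians over the basic transcripts of GENCODE M21, which also gave the gene bounds, counted from 1, and 47218 of the 47632 genes had a match. Promoter windows are from RefSeq. Python 3.11.15 with pandas 2.3.3, numpy 2.4.6, scipy 1.17.1 and matplotlib 3.10.9 was used, and the computations were tested on simulated data.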

Additional observations from a re-analysis of the deposited data

Results flagged for a closer look

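For 2 of the 10 genes the difference between genotypes had opposite signs on Day 0 and Day 4. In each gene the negative sign rested on a value of -0.02 and carries little weight. In FPKM it was 1.01-fold for B4galnt2 on Day 0 and 1.02-fold for Muc4 on Day 4. For B4galnt2, the log2 fold change of Tfeb ΔIEC over Tfeb flox/flox was -0.02 on Day 0 and 2.28 on Day 4, which is 2.29 higher. For Muc4 it was 0.53 on Day 0 and -0.02 on Day 4, a difference of -0.55, and the Day 4 sign turned after division by the sums. These differences between days were not tested, since each group has 1 pooled value.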

How the results depend on the processing

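No paired analysis was possible because each genotype has 1 pooled value per day, and for the same reason no replicate could be left out. Each of 9 alternatives changed 1 choice. No count of the 10 genes at least 4-fold lower moved from 0. The count of those at least 4-fold higher became 1 on Day 0 at a 2-fold threshold, and fell from 3 to 1 on Day 4 and to 1 on Day 11 at an 8-fold threshold (Fut2). Otherwise it lay between 2 and 4 on Days 4 and 11. For the other mucin and glycosylation genes, the Day 0 count of 3 became 0 with a pseudocount of 5 FPKM, 9 at 2-fold and 0 at 8-fold. Their Day 4 count of 9 became 14 with a pseudocount of 0.1 FPKM, 4 with 5 FPKM, 18 after division by the sums, 5 after subtraction of the like-length median, 24 at 2-fold and 2 at 8-fold. Their Day 11 count of 10 became 15 with 0.1 FPKM, 5 with 5 FPKM, 19 after division by the sums, 6 after subtraction of the like-length median, 26 at 2-fold and 2 at 8-fold. Of all measured genes on Day 4, 13.6% were at least 4-fold higher and 4.77% lower after division by the sums. After subtraction of the like-length median these shares were 7.76% and 5.13%. On Day 11 they were 13.7% and 4.74% after division by the sums, and 7.82% and 5.23% after the subtraction. Shares over all genes are not given for the other pseudocounts and thresholds. The median log2 fold change of the measured genes of the 10 (9, but 5 or 6 with at least 5 FPKM and 10 on Day 0 without a filter, which let in Muc1) on Day 4 ranged from 0.38 (like-length median subtracted) to 2.04 (5 genes with at least 5 FPKM), on Day 11 from 0.44 to 2.13 and on Day 0 from 0.21 to 0.61. Of the values of single genes under the alternatives that kept the 4-fold threshold, 172 kept their side of it, 2 passed it (Muc13 on Days 4 and 11, after division by the sums) and 4 fell short of it (C1galt1c1 3 times and B4galnt2 once). Other causes of these moves were not tested. The unknown depth limits Muc1 and other genes near or below 1 FPKM. A listed 0 may be a failed estimate at any level, and the goblet cell marker Fcgbp was listed at 0 in 1 group and at 145 FPKM or more in others.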
